A study of Mus musculus with 8 samples.

Results

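The numbered zinc-finger protein genes of the mouse carry the symbol Zfp followed by digits alone. They were chosen by name and level only from a table of normalized read counts for 16940 genes in mouse embryonic stem cells: a symbol of that form and 100 or more normalized reads on average across all 8 libraries, with Zfp42, Zfp143 and Zfp352 left out. Of 335 genes with such a symbol, Zfp42 and Zfp143 among them, 267 were kept and 66 had a mean below 100. Zfp956 (mean 100.01), Zfp213 (100.2) and Zfp707 (101.8) lay just inside the minimum, and Zfp493 (99.3), Zfp595 (97.6) and Zfp551 (96.8) just outside. The members were thus selected on their mean level, which is given as a description. No difference between groups entered the rule directly, but the mean covers all groups, so a gene near the minimum can pass through its highest group. A difference from that group is then partly selected for.

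Transient transcriptome sequencing labels newly made RNA with a short pulse of 4-thiouridine, so a value follows recent transcription more closely than a stock of mature RNA. All 8 libraries came from E14 embryonic stem cells in which CTCF carries an auxin-inducible degron, and each received 400 µM 4-thiouridine for 15 min in serum-free medium with leukemia inhibitory factor, PD0325901 and CHIR99021. There were 4 groups of 2 replicates: the line with an overexpressed control and no IAA (the auxin), the same line after 12 hours of IAA, and lines with overexpressed wild-type or mutated CTCF, both after 12 hours of IAA. The controls thus carry the degron too, and none of the groups had IAA without the degron or overexpressed CTCF without IAA, so degradation of CTCF and other effects of IAA cannot be told apart. The labels name neither the mutation nor whether a line is a clone, and they do not say whether replicates came from separate cultures. The p-values thus measure only the spread between these libraries, estimated partly from other genes of similar level. The replicates of a group are given below as 2 values in replicate order. Depth ran from 15671114 to 21561141 reads per library, and the IAA-treated control libraries (15671114 and 17187354) were shallower than the untreated ones (21372946 and 21335071). All 6 stem-cell markers checked were listed, with summed levels of 39107 to 49226 normalized reads per library. Of 4 primitive endoderm markers 2 were listed (sums of 155 to 230), of 3 mesoderm markers 2 (42.8 to 93.1), of 3 neural markers 1 (3.13 to 19.2) and of 3 fibroblast markers 0. The samples are bulk, so fewer cells transcribing a gene and less transcription per cell cannot be told apart.

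C2H2 zinc fingers are small zinc-bound folds, each of which contacts a few bases of DNA, and proteins with long arrays of them read long DNA sites. Many mouse genes of this kind also encode a KRAB box, which binds TRIM28 and through it recruits the histone methyltransferase SETDB1 and heterochromatin proteins to silence retroelements and imprinted regions. These KRAB genes arose by repeated duplication and sit in clusters of related copies. Other numbered zinc-finger genes have no KRAB box and include transcription factors, chromatin cofactors and RNA-binding proteins. CTCF is itself a zinc-finger protein. It stops cohesin at its sites, forms the borders of chromosome domains, and also binds many promoters.

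Proteins translated from RefSeq coding sequences were found for 264 of the 267 genes. By a match to at least 9 of 16 positions of the KRAB A-box, 167 encoded a KRAB box and 97 did not. The other 3 (Zfp986, Zfp989 and Zfp264) were not classified. Fingers were counted as matches to a C2H2 sequence pattern, so these numbers can differ from curated ones. The median number of C2H2 fingers was 12 in the KRAB class and 9 in the class without. Levels were similar, with a median of 641 normalized reads (over the 8 libraries) in the KRAB class and 678 in the other, and the whole set ran from 100.01 to 14614 with a median of 659. KRAB gene bodies were poorer in G and C, with a median GC content of 41.3% against 45.1% in the 96 genes without the box that have a value and 45.5% in the 15799 tested genes that have one. A position was found for 266 of the 267 genes. Zfp91 had none and takes no part in clusters or neighbour pairs. The placed genes lay on 20 chromosomes, with 60 on chromosome 7, 37 on chromosome 17, 24 on chromosome 4 and 18 on chromosome 13. Chaining genes whose starts lie within 200 kb gave 23 clusters of at least 3 genes. These held 119 of the 267 genes (44.6%): 103 KRAB genes, 13 without the box and 3 unclassified. Some copies are nearly identical: in 36 genes, 34 of them KRAB genes, over 20% of exonic 50-base stretches also occur elsewhere among exons, and the counting of such reads is not stated, so their values are uncertain.

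In all, 4 comparisons were made. The first asks what IAA changed in the control line, the next what wild-type or mutated CTCF changed under IAA, and the last how the mutated form differed from the wild-type form. The IAA-treated control libraries enter the first 3, so their values are set side by side and not counted as separate evidence. Each fold change is a log2 fold change of value + 1 with its standard error from limma fitted to all 15818 genes. A gene was called changed at a Benjamini-Hochberg adjusted p under 0.05 over those genes. The limma fit draws the spread of each gene toward that of genes of similar level. Values after ± and p-values therefore do not show the spread of a gene's own replicates alone. All 267 genes were tested.

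With IAA, more numbered zinc-finger genes fell than rose. In the control line 73 were lower and 30 higher, against 18.4% lower and 19.4% higher of all genes tested (37.7% called in all). The lower genes made up 27.3% of the 267 and the higher ones 11.2%. The median log2 fold change was -0.08, beside -0.0017 over all genes. In the KRAB class 51 fell, 15 rose and 101 did not pass, with a median of -0.11. In the class without the box 22 fell, 15 rose and 60 did not pass, with a median of -0.05. Most changes were small, and 4 genes had a log2 fold change of -1 or below while 0 reached 1. The part of the lower depth of the IAA-treated libraries in this was not tested. Falls outnumbered rises under both other ways of scaling the libraries, with 87 lower to 40 higher with median-of-ratios factors. With gene-wise correction for GC content and length the split was nearly even, 59 lower to 54 higher for all the genes and 40 to 35 for the KRAB class. With libraries scaled to equal totals it was 117 to 24, with 84 to 11 in the KRAB class and 32 to 13 in the other. Without the second untreated control library 43 were lower and 28 higher, and the KRAB count dropped from 66 to 39, with 26 lower and 13 higher.

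**Figure D1:**
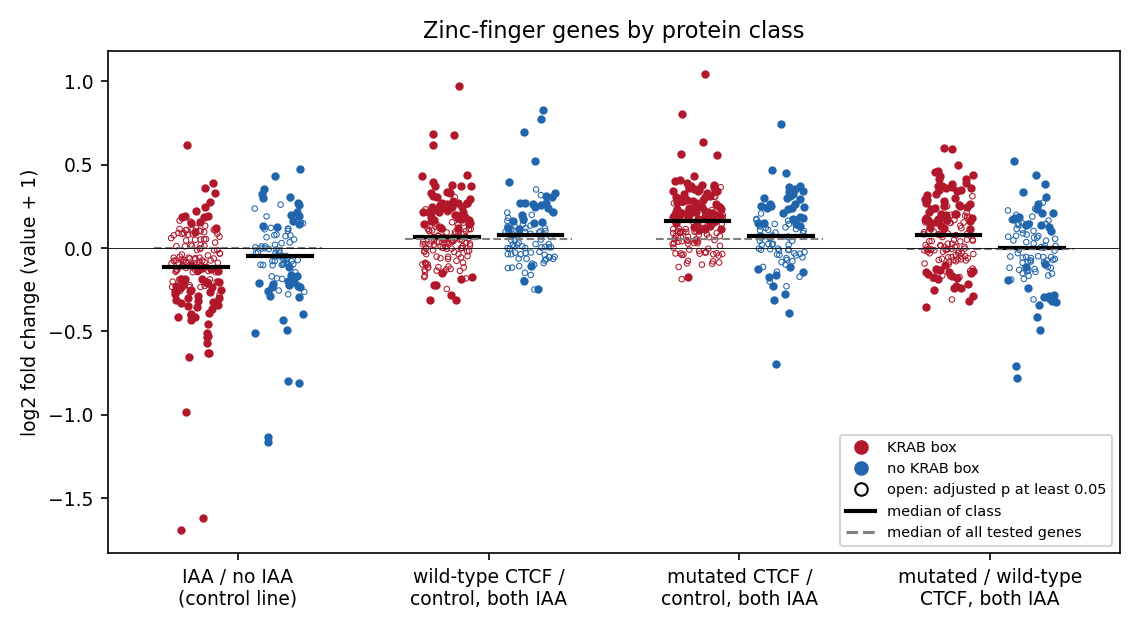
Each point is the log2 fold change (value + 1) of a numbered zinc-finger gene in one of 4 comparisons, for 167 genes with a KRAB box and 97 without. Filled points passed the limma test, black lines are class medians and dashed lines the median of all tested genes. The KRAB median lies at -0.11 with IAA and at 0.17 with mutated CTCF.

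The 4 genes that fell most with IAA were Zfp786, Zfp398, Zfp341 and Zfp423. Zfp786 encodes a KRAB protein with 11 fingers by the pattern used (chr6:47819266-47830867, minus strand, GRCm38). It had 193 and 208 normalized reads in the untreated control and 64.3 and 58.3 with IAA, a log2 fold change of -1.69 ± 0.14 (limma adjusted p 6.8e-13). Wild-type CTCF libraries stood at 103 and 94.1, and mutated CTCF libraries at 133 and 123. The 4 groups did not overlap: untreated was highest, IAA alone lowest, and both CTCF forms lay between.

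Its neighbour Zfp398 (chr6:47835661-47873537, plus strand) encodes a KRAB protein whose human counterpart acts with SMAD3 in pluripotent cells. It gave 1255 and 1312 in the untreated control, 390 and 445 with IAA, 826 and 811 with wild-type CTCF and 750 and 709 with mutated CTCF. The fall with IAA was -1.62 ± 0.07 (limma adjusted p 1.1e-22), and the differences from the IAA-treated control were 0.97 ± 0.07 for the wild-type form and 0.81 ± 0.07 for the mutated one. Again the CTCF libraries lay between the controls with and without IAA.

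Zfp341 (chr2:154613297-154646821, plus strand) has no KRAB box and encodes an activator of STAT3 transcription. It had 206 and 202 normalized reads untreated, 90.5 and 90.2 with IAA, 157 and 165 with wild-type CTCF and 147 and 157 with mutated CTCF. The log2 fold changes were -1.17 ± 0.12 with IAA (limma adjusted p 3.6e-10), 0.83 ± 0.12 with wild-type and 0.75 ± 0.12 with mutated CTCF. The CTCF groups nearly met, and their difference of -0.08 ± 0.12 did not pass the test (adjusted p 0.65).

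Zfp423 (chr8:87661810-87959595, minus strand) encodes a protein, with 28 fingers by the pattern used, that acts in fat-cell commitment and cerebellar development. Its values were 398 and 342 untreated and 177 and 158 with IAA, a change of -1.13 ± 0.12 (limma adjusted p 2.3e-10). They stayed at 190 and 167 with wild-type CTCF, and were lower still, at 98.2 and 109, with mutated CTCF. Unlike the other 3, it had its lowest libraries in the mutated group, with -0.69 ± 0.12 against the IAA-treated control and -0.78 ± 0.12 against wild-type CTCF (adjusted p 1.1e-05 and 1.5e-06).

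Promoter sequences are shown for the first 3 of these genes because each carries a match to a reduced 12-letter form of the CTCF core motif: CC, any 3 bases, AG, any 2 bases, then GGC. It was the only motif searched, on both strands. The windows run from 250 bases before to 50 after the RefSeq start on GRCm38.p6, are printed in the direction of the gene, and have the match in capitals. Zfp786 is at chr6:47830456-47830755 (minus strand), Zfp398 at chr6:47835411-47835710 (plus strand) and Zfp341 at chr2:154613118-154613417 (plus strand).
Zfp786: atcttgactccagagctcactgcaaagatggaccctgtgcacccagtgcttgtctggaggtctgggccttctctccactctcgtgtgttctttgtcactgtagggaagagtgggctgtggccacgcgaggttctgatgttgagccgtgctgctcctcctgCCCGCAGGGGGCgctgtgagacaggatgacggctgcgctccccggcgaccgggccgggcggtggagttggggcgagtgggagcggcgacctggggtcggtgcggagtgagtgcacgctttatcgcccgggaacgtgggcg
Zfp398: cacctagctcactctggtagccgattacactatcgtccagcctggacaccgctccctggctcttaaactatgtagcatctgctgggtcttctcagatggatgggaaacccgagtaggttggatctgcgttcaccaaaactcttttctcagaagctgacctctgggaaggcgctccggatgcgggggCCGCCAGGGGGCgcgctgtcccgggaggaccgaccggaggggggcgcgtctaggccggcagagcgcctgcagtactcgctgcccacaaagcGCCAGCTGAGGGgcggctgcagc
Zfp341: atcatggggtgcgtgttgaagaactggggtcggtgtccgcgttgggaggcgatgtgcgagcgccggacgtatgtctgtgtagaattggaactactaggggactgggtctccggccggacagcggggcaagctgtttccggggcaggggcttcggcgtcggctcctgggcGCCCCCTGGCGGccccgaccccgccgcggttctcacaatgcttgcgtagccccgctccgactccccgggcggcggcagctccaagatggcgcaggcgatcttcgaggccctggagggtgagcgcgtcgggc
Counted with the start site as 0, the match begins at -90 in Zfp786 and at -64 in Zfp398, which has another at 27 on the opposite strand. In Zfp341 it begins at -81 on the opposite strand. Read on their own strand, the upstream matches of Zfp398 and Zfp341 have the same 12 letters, CCGCCAGGGGGC, and that of Zfp786 is CCCGCAGGGGGC. Such a match was present in 9.84% of all 27025 RefSeq promoters of this length and in 14.6% of those of the tested genes. Promoters were given for 222 of the numbered zinc-finger genes, and 30 of these (13.5%) held one, 8.84% in the KRAB class and 22.7% in the other. It was present in 12 of 67 genes lowered by IAA (17.9%), beside 18.1% of all tested genes lowered. Among tested genes with a log2 fold change of -1 or below 54 of 214 (25.2%) held one, and here 3 of 4, Zfp423 being the one without. A match is not evidence of binding, which these data do not measure.

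**Figure D2:**
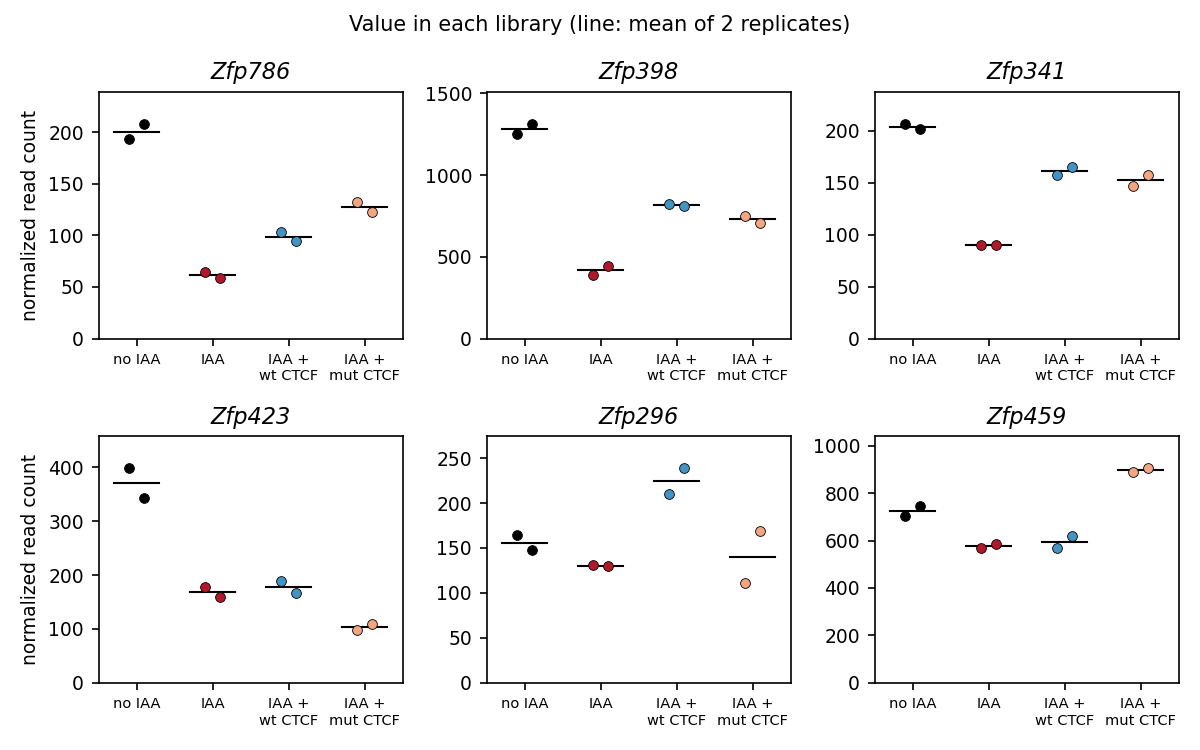
Normalized read count of 6 genes in each of the 8 libraries, by group, with a line at the group mean of 2 replicates. In Zfp786, Zfp398 and Zfp341 both CTCF groups lie between the controls with and without IAA, whereas Zfp423 is lowest with mutated CTCF, Zfp296 is highest with wild-type CTCF and Zfp459 is highest with mutated CTCF.

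Zfp786 and Zfp398 open a row of 7 numbered zinc-finger genes on chromosome 6 (47819266 to 48086593, GRCm38), singled out after its values were seen. In order along the chromosome it runs Zfp786, Zfp398, Zfp282, Zfp212, Zfp956, Zfp777 and Zfp746. With IAA 6 of the 7 fell. Zfp282, whose human counterpart represses a viral promoter, went from 540 and 586 to 280 and 288, a change of -0.98 ± 0.08 (limma adjusted p 1.5e-12). Zfp212 went from 588 and 591 to 409 and 355 (-0.63 ± 0.08), Zfp956 from 131 and 146 to 61.9 and 99.0 (-0.81 ± 0.17), and Zfp777 from 945 and 934 to 643 and 621 (-0.57 ± 0.06). In each of these the untreated and IAA-treated libraries did not overlap. Zfp746, the Parkin substrate known as PARIS and the last of the row, had 726 and 778 untreated and 660 and 737 with IAA. These ranges overlapped, and the change of -0.11 ± 0.07 did not pass (adjusted p 0.22). The size of the fall thus lessened along the row from one end to the other, apart from Zfp956. That gene overlaps Zfp783 on the same strand, where reads cannot be assigned with certainty, and Zfp783, with a mean of 35.3 too low for the rule, changed by -1.56 ± 0.25.

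The protein-coding genes beyond Zfp786 changed little with IAA. Pdia4, a disulfide isomerase gene, had 0.12 ± 0.05 (adjusted p 0.060) and Ezh2, the Polycomb methyltransferase gene, -0.10 ± 0.03 (adjusted p 0.013). Rny3, a short RNA gene between them with a mean of 22.7 normalized reads, had 0.72 ± 0.29 (adjusted p 0.048). Under IAA, the near end of the row, Zfp786 and Zfp398, was higher with both CTCF forms than in the control. Zfp786 changed by 0.68 ± 0.14 with wild-type and 1.05 ± 0.14 with mutated CTCF. Zfp282 rose with wild-type CTCF, at 363 and 355 (0.34 ± 0.08, adjusted p 0.0021), and was at 290 and 318 with mutated CTCF (0.10 ± 0.08, adjusted p 0.40). For Zfp212 neither difference passed (0.07 ± 0.08 and -0.03 ± 0.08), and its libraries with either form, 363 to 418, stayed below both untreated libraries. Farther along, Zfp777 rose (0.18 ± 0.06, adjusted p 0.022) and Zfp746 fell (-0.17 ± 0.07, adjusted p 0.048) with wild-type CTCF, and neither passed with the mutated form. Of the 7 genes of the row, 4 rose and 1 fell with wild-type CTCF, beside 21.5% higher and 10% lower of all genes tested. The fall was lost without any of 4 libraries (either untreated control, the second IAA-treated control or the first wild-type library). The rise of Zfp777 was lost without the second IAA-treated control or the second wild-type library, with median-of-ratios factors and with GC and length correction. Between the forms, Zfp786 was higher with mutated CTCF by 0.37 ± 0.14 (adjusted p 0.040), a call lost when any of 5 libraries was left out (either untreated control, the second wild-type library, or either mutated library). The calls for Zfp398 and Zfp282, both lower with mutated CTCF (-0.17 ± 0.07 and -0.24 ± 0.08), were also lost: for Zfp398 when any untreated, wild-type or mutated library was left out, and for Zfp282 without either wild-type library or without the first mutated one.

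**Figure D3:**
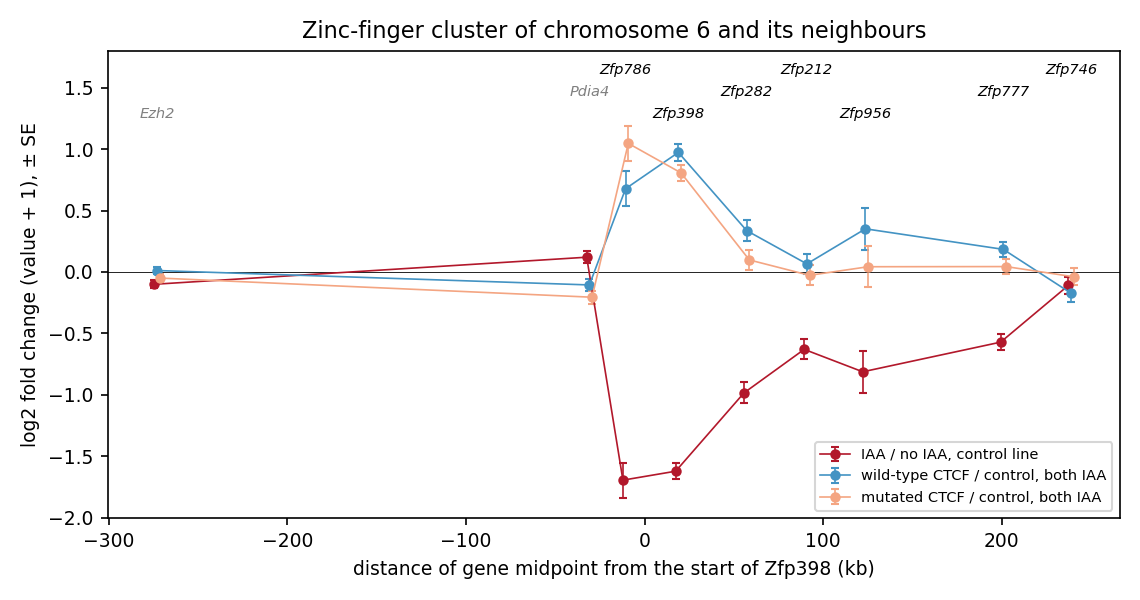
Log2 fold change (value + 1, ± SE) of the 7 zinc-finger genes of the chromosome 6 row and of the neighbours Ezh2 and Pdia4, against distance from the start of Zfp398 in kb. The change with IAA runs from -1.69 at Zfp786 to -0.11 at Zfp746, while Pdia4 lies at 0.12.

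Outside that row, Zfp365, a centrosome and genome-stability gene whose protein held no C2H2 finger by the pattern used, went from 258 and 260 to 137 and 162 (-0.80 ± 0.11, limma adjusted p 1.9e-07). It stood at 233 and 249 with wild-type CTCF and at 181 and 207 with mutated CTCF. Zfp2, without a KRAB box, went from 350 and 333 to 257 and 222 (-0.51 ± 0.10), was at 229 and 232 with wild-type CTCF, and returned to 313 and 351 with mutated CTCF.

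Among genes that rose with IAA, Zfp647, a KRAB gene of chromosome 15, changed most. Its values were 149 and 156 untreated and 231 and 238 with IAA (0.62 ± 0.11, limma adjusted p 1.3e-05). They remained high with wild-type CTCF (200 and 242) and mutated CTCF (265 and 273), and neither difference from the IAA-treated control passed (-0.09 ± 0.11 and 0.20 ± 0.11, adjusted p 0.56 and 0.16). Zfp827, which recruits the NuRD complex to telomeres, rose from 5776 and 5904 to 8082 and 8162 (0.48 ± 0.03, adjusted p 2.3e-15). It was lower with both CTCF forms than with IAA alone, at 6827 and 6894 with wild-type (-0.24 ± 0.03) and 6444 and 6620 with mutated CTCF (-0.31 ± 0.03). All 8 libraries of this gene kept the order untreated, mutated, wild-type, IAA alone without overlap between groups. The KRAB gene Zfp667 rose by 0.39 ± 0.09 (222 and 217 to 287 and 290). Zfp623 and Zfp78 rose by 0.43 ± 0.11 and 0.36 ± 0.10, but Zfp623 lost its call without the first untreated library, and Zfp78 lost its call without the second untreated or the first IAA-treated library.

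With wild-type CTCF under IAA, 75 genes were higher and 11 lower than in the IAA-treated control, against 21.5% higher and 10% lower of all genes tested (31.6% called). Their median log2 fold change was 0.07, beside 0.06 over all genes. In the KRAB class 50 rose and 8 fell, and in the other class 23 rose and 3 fell. The split narrowed to 55 higher and 24 lower with median-of-ratios library factors, which moved the median of all genes from 0.057 to about 0, and to 66 and 25 with GC and length correction. In the KRAB class it was 37 to 16 with those factors and 46 to 16 with the correction, and in the other class 16 to 8 and 18 to 9. Without the genes of high shared sequence, whose values are uncertain, 54 of 230 rose (23.5%) and 11 fell (4.78%). In the KRAB class 31 of 133 then rose (23.3%, instead of 29.9%) and 8 fell (6.02%). These shares of rises were near the 21.5% of all genes tested, while the shares of falls stayed below 10%. Without the first IAA-treated control library the KRAB count dropped from 58 to 38, and without the second wild-type library the count in the class without the box dropped from 26 to 13.

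The genes highest with wild-type CTCF included Zfp398 and Zfp341, described above, and Zfp296. Zfp296 encodes a partner of KLF4 in reprogramming and has no KRAB box. It had 165 and 147 normalized reads untreated, 131 and 130 with IAA, 210 and 239 with wild-type CTCF and 111 and 169 with mutated CTCF. Its rise of 0.77 ± 0.14 with wild-type CTCF passed (limma adjusted p 3.6e-05), while the changes with IAA (-0.25 ± 0.14) and with mutated CTCF (0.07 ± 0.14) did not. The rise lost its call when limma was fitted without a mean-variance trend. The wild-type libraries lay above all others, and the mutated pair was the most spread. Zfp365 rose by 0.69 ± 0.11 and the KRAB gene Zfp113 by 0.68 ± 0.14, from 108 and 118 to 199 and 166. Of the 11 genes that fell, Zfp827 alone kept its call whichever library was left out. Without the second IAA-treated control library 3 fell, and without the first wild-type library 4. Zfp811 and Zfp940, both -0.31 ± 0.10, lost theirs without the first IAA-treated control or the first wild-type library. Zfp810 (-0.22 ± 0.07) lost its call without the second library of either group, and Zfp202 (-0.28 ± 0.11) lost its call without any of 4 libraries, both untreated ones and the second library of either group compared.

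With mutated CTCF under IAA, 110 genes were higher and 11 lower than in the IAA-treated control, against 22% higher and 12.4% lower of all genes tested (34.3% called). The median was 0.14, beside 0.06 over all genes. In the KRAB class 77 rose and 1 fell (median 0.17), and in the other class 31 rose and 10 fell (median 0.07). With median-of-ratios factors the KRAB split was 63 to 2, and with GC and length correction 63 to 3. In the other class the median-of-ratios split was 26 to 15.

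Zfp786, Zfp398 and Zfp341 rose most with mutated CTCF, followed by Zfp459 and Zfp383, both KRAB genes. Zfp459 on chromosome 13 had 702 and 747 normalized reads untreated, 568 and 586 with IAA, 569 and 618 with wild-type CTCF and 888 and 905 with mutated CTCF. It fell by 0.33 ± 0.07 on the log2 scale with IAA and rose by 0.63 ± 0.07 with mutated CTCF (limma adjusted p 0.00011 and 4.2e-10), while the difference with wild-type CTCF, 0.04 ± 0.07, did not pass (adjusted p 0.69). Mutated CTCF libraries lay above all 6 others. Zfp383 stood at 189 and 185 with IAA and at 278 and 277 with mutated CTCF (0.57 ± 0.10, adjusted p 3.4e-05).

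Of the 11 genes lower with mutated CTCF, 10 had no KRAB box. Without the second IAA-treated control library 5 were lower, and without the first mutated library 7. Next to Zfp423 they included Zfp800, a gene of pancreas development, at 858 and 927 with IAA and 664 and 698 with mutated CTCF (-0.39 ± 0.06, limma adjusted p 4.3e-06). Zfp407 encodes a large protein, with 23 fingers by the pattern used, that acts in fat-cell gene regulation. It rose from 8096 and 8233 to 9329 and 9665 with IAA and was at 7834 and 7839 with mutated CTCF (-0.28 ± 0.03, limma adjusted p 2.9e-09). Zfp827, described above, was also among them. The neural repressor Zfp536 (-0.23 ± 0.08) lost its call with GC and length correction, and without the second IAA-treated control or the first mutated library.

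Set directly against wild-type CTCF, mutated CTCF libraries had 69 genes higher and 35 lower, against 16.3% higher and 18.4% lower of all genes tested (34.7% called). The median difference was 0.04, beside -0.0087 over all genes. The KRAB class gave 52 higher and 20 lower (median 0.08), and the class without the box 17 and 15 (median 0.0022). The lower count of the class without the box also depended on which library was left out. With GC and length correction the KRAB split was 53 to 28, and without the second mutated library it was 35 to 13. The lower count of 35 dropped to 22 without the first mutated or the second wild-type library, and the KRAB lower count of 20 to 12 without the first mutated or the first wild-type library and to 13 without the second library of either group. Across the 267 genes the change with IAA and the difference between the CTCF forms had a Pearson correlation of -0.02 (Spearman -0.11), and across all tested genes -0.12 (Spearman -0.14), as a description over genes that share 8 libraries.

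The genes highest with the mutated form were Zfp940, Zfp459, Zfp2, Zfp811 and Zfp974. Zfp940, a KRAB gene of chromosome 7, had 292 and 268 normalized reads untreated, 223 and 205 with IAA, 163 and 182 with wild-type CTCF and 256 and 267 with mutated CTCF. It differed between the forms by 0.60 ± 0.10 (limma adjusted p 1.5e-05), with both mutated libraries above both wild-type ones. Zfp811, a KRAB gene of chromosome 17, stood at 177 and 183 with wild-type and 262 and 246 with mutated CTCF (0.50 ± 0.10, adjusted p 0.00019). Zfp2 differed by 0.52 ± 0.10 (adjusted p 4.1e-05). Zfp974 differed by 0.46 ± 0.12, a call lost without the second mutated library.

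Lowest with the mutated form were Zfp423, described above, and Zfp296, which differed by -0.71 ± 0.14 (limma adjusted p 0.0001). The call of Zfp296 was lost without a mean-variance trend. Zfp335, part of a histone methyltransferase complex, followed with 350 and 395 in wild-type and 238 and 294 in mutated libraries (-0.49 ± 0.10, adjusted p 0.00015). Zfp27 (-0.42 ± 0.15) and Zfp113 (-0.35 ± 0.14) were next. Their calls were lost without either mutated library, and without the second wild-type library for Zfp27 or the first for Zfp113.

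Genomic neighbours were compared over 113 pairs, each of consecutive numbered zinc-finger genes whose starts lie within 200 kb. In 70 pairs the genes run on the same strand, in 20 they diverge and in 23 they converge, and the bodies of 1 pair overlap. Neighbours are often copies of each other: the identity of their proteins had a median of 42.9% over 110 pairs and ran from 10.6% to 96.3%. The changes with IAA had the same sign in 79 of the 113 pairs (69.9%), beside 54.6% of 2944 pairs of these genes more than 1 Mb apart on one chromosome and 55.6% of 12950 pairs of adjacent tested genes of any kind. With GC and length correction the share of neighbours with IAA was 61.9%, and the shares of the other pairs were not computed under that correction. With wild-type CTCF the share was 70.8%, beside 52.5% of distant pairs and 7380 of the 12950 pairs of adjacent tested genes. With mutated CTCF it was 77.9%, beside 67.9% and 57.5%. Most of these genes had positive values there, which raises the share of neighbours as well as that of distant pairs. Between the CTCF forms the share of neighbours was 58.4%, beside 53.2% and 56.9%. With starts within 100 kb it was 52.4%, below both. Pairs share genes and libraries, so these shares are a description.

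Neighbours were also closer in size of change than distant pairs. The median absolute difference of log2 fold changes within a neighbouring pair was 0.138 with IAA, 0.123 with wild-type CTCF, 0.103 with mutated CTCF and 0.154 between the forms. For distant pairs it was 0.188, 0.173, 0.151 and 0.194 in the same order. With IAA both genes of a neighbouring pair were called in the same direction in 17 pairs and in opposite directions in 2. The counts were 18 and 1 for the wild-type form, 24 and 0 for the mutated form, and 16 and 6 between the forms. As shares of pairs called in the same direction, neighbours had 15.0% with IAA, 15.9% with wild-type CTCF and 14.2% between the forms, beside 7.57%, 6.86% and 9.14% of distant pairs. Adjacent tested genes of any kind had 9.24%, 7.08% and 7.44% in the same order. With mutated CTCF the share of 21.2% was near the 18.5% of distant pairs, beside 8.67% of adjacent tested genes. Shares of neighbours called in opposite directions were 1.77% with IAA, 0.88% with wild-type CTCF, 0% with mutated CTCF and 5.31% between the forms. Distant pairs had 4.42%, 2.72%, 1.73% and 6.45%, and adjacent tested genes 5.05%, 2.81%, 3.24% and 3.80%. How strongly the sizes went together depended on the chromosome 6 row. Across the 113 pairs the Pearson correlation of the changes with IAA was 0.61, and without the 6 pairs of that row it was 0.21. With wild-type CTCF it was 0.38 and 0.28, with mutated CTCF 0.22 and 0.03, and between the forms 0.16 and 0.13. Adjacent tested genes of any kind had 0.134 with IAA, 0.127 with wild-type CTCF, 0.167 with mutated CTCF and 0.175 between the forms. The values between the forms, and that with mutated CTCF without the row, were thus no higher than for adjacent genes of any kind. Same-sign shares moved little without that row, to 68.2%, 70.1%, 79.4% and 57.9%.

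**Figure D4:**
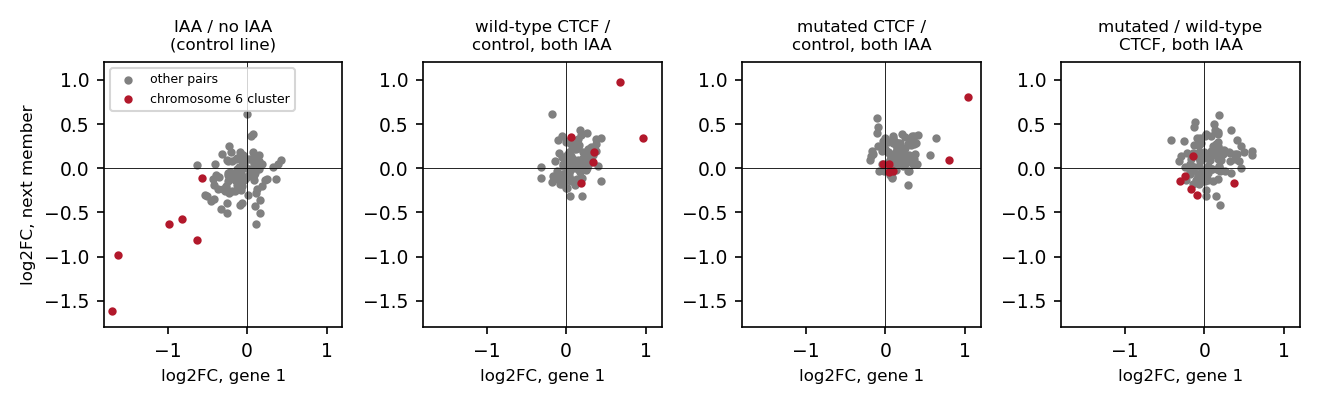
Log2 fold change of a numbered zinc-finger gene against that of the next one within 200 kb, for 113 pairs in each of 4 comparisons. The 6 pairs of the chromosome 6 row (red) stretch the plot for IAA toward the lower left, and the Pearson correlation there is 0.61 with them and 0.21 without.

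Counts in single clusters are small and are read against the shares of all tested genes: 19.4% higher and 18.4% lower with IAA, 21.5% and 10% for the wild-type form, 22% and 12.4% for the mutated one, and 16.3% and 18.4% between them. The largest cluster, 15 KRAB genes over 1006 kb of chromosome 17 (21450374 to 22456689), had 9 genes that fell with IAA and 1 that rose, with a median of -0.19. Zfp53 fell most, from 733 and 753 to 525 and 518 (-0.51 ± 0.07, limma adjusted p 4.1e-08), and was at 629 and 620 with wild-type and 627 and 645 with mutated CTCF. At the other end Zfp946 rose by 0.19 ± 0.06, a call lost without the first untreated or the first IAA-treated library. With wild-type CTCF 6 rose and 0 fell, led by Zfp758 (658 and 673 to 881 and 869, 0.39 ± 0.06), and all 15 values were positive on the authors' scale and 12 with median-of-ratios factors. With mutated CTCF 4 rose and 0 fell. Between the forms 1 was higher and 4 lower with the mutated form, which became 1 and 1 without the first wild-type library and 0 and 2 without the second mutated library. The 9 other tested genes within the span had 4 that fell with IAA and 0 that rose.

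The next cluster, 11 genes on chromosome 7 (29768552 to 30169750), of which 7 have a KRAB box, had few calls: Zfp940 fell with IAA (a call lost without the first untreated library), while 3 fell without the second IAA-treated library and 5 with libraries scaled to equal totals. With mutated CTCF 4 genes rose and 0 fell, or 2 without the second mutated library and 8 without either wild-type library. It was the difference between the forms that varied most here, from -0.42 at Zfp27 to 0.60 at Zfp940, with 4 higher and 1 lower (3 and 0 without either mutated library, 4 and 0 without the second wild-type one), and of the numbered genes kept here only Zfp420 lies between these along the chromosome. Zfp568 in this cluster, a KRAB gene that represses a placental promoter of Igf2, rose with mutated CTCF from 5328 and 5650 to 6420 and 6352 (0.22 ± 0.04, limma adjusted p 4.8e-06).

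In a chromosome 4 cluster of 10 genes (146971976 to 147848366), 2 rose and 0 fell with IAA, a share near that of all genes, and 1 of the rises, Zfp984, was lost without the first untreated or the second IAA-treated library. The split with IAA was 7 and 0 with GC and length correction and 1 and 3 with libraries scaled to equal totals. With wild-type CTCF all 10 values were positive and 6 passed, from 0.07 ± 0.04 at Zfp988 to 0.31 ± 0.05 at Zfp989. These genes include near-identical copies, and up to 82.2% of the exonic 50-base stretches of Zfp991 occur elsewhere, so the values of single genes there are uncertain. The 8 KRAB genes of another chromosome 17 cluster (32765496 to 33110705) were all higher with mutated than with wild-type CTCF in value, from 0.13 ± 0.04 at Zfp871 to 0.50 ± 0.10 at Zfp811, and 6 passed. The 6 became 3 without the first wild-type or the second mutated library. With mutated CTCF 4 of them rose and 0 fell, or 2 without the second mutated library and 1 with GC and length correction.

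**Figure D5:**
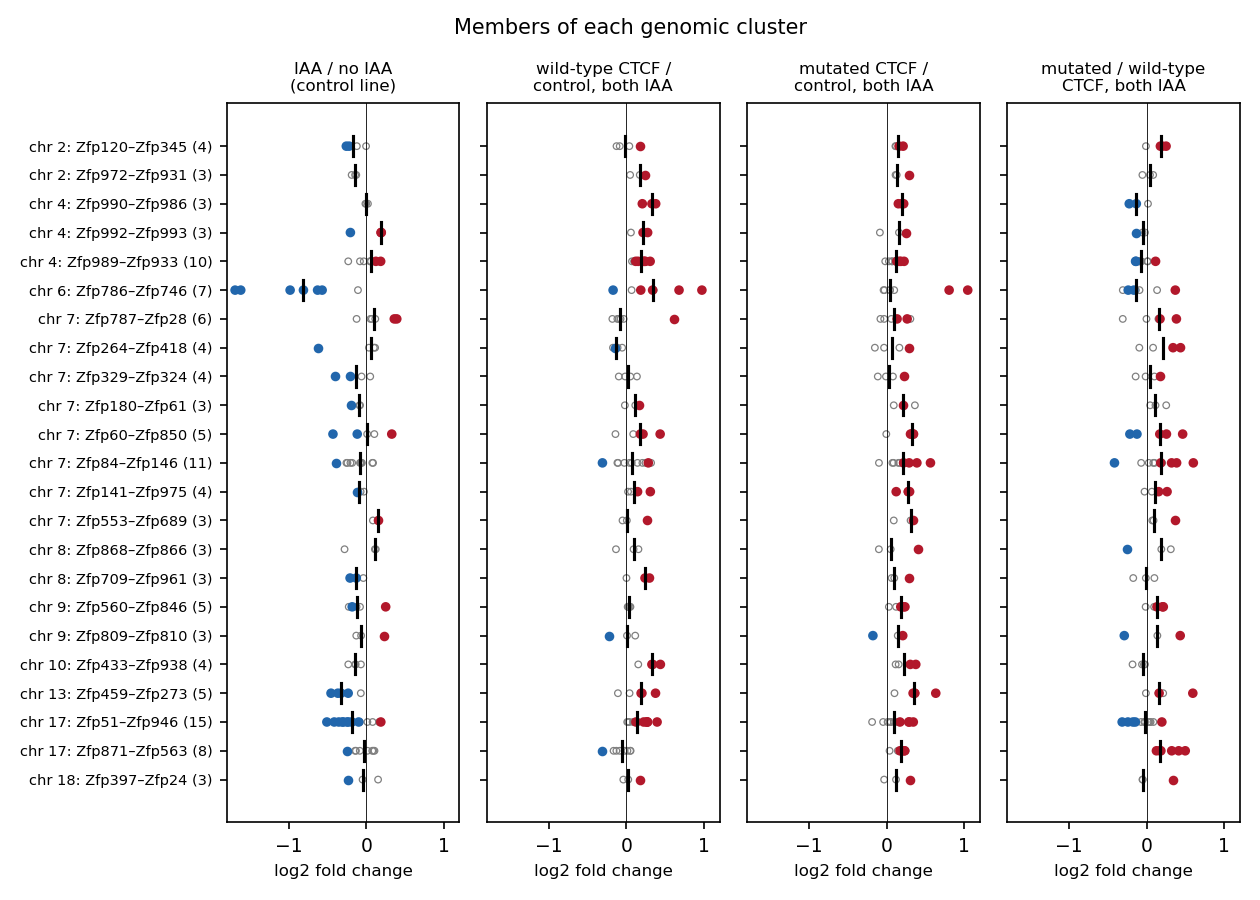
Log2 fold changes (value + 1) of the genes in each of 23 clusters, named by chromosome, first and last gene and number of genes, in 4 comparisons. Red points rose, blue points fell, open points did not pass the limma test, and black bars are cluster medians, of which the chromosome 6 row has the lowest with IAA, -0.81.

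Lists of genes with known roles, chosen with earlier results known, hold few genes each, and their counts are read against the same shares of all tested genes as those of the clusters. Both imprint guardians, KRAB proteins that keep methylation on imprinted regions, rose with IAA. Zfp57 went from 2313 and 2316 to 2794 and 2809 (0.28 ± 0.04, limma adjusted p 6.1e-07), stayed at 2732 and 2639 with wild-type CTCF, and was highest with mutated CTCF, 3256 and 3274 (0.22 ± 0.04, adjusted p 3.8e-05). Zfp445 rose by 0.15 ± 0.05 with IAA, a call lost with libraries scaled to equal totals and without either untreated or the first IAA-treated library. Of 6 retroelement silencers 1 rose and 2 fell with IAA (1 and 1 without the second untreated library, 1 and 3 without the first, 1 and 4 with libraries scaled to equal totals), and 3 rose and 0 fell with wild-type CTCF (2 and 1 with median-of-ratios factors). With mutated CTCF 4 rose and 1 fell, or 2 and 1 without the first IAA-treated control or the second mutated library, and 4 and 0 without the second IAA-treated control. Zfp809, which binds the primer-binding site of murine leukemia proviruses, rose with IAA from 1481 and 1464 to 1656 and 1782 (0.22 ± 0.05, adjusted p 0.00032), and was lower with mutated than with wild-type CTCF (1507 and 1532 against 1879 and 1836, -0.29 ± 0.05, adjusted p 9.1e-06).

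Of 7 stem-cell transcription factors 2 rose and 3 fell with IAA (1 and 2 without the first IAA-treated library), beside 19.4% and 18.4% of all tested genes. With wild-type CTCF 2 rose (1 without the second wild-type library), near the 21.5% of all genes. With mutated CTCF 4 rose and 1 fell, and the fall, at Zfp219, was lost without any of 5 libraries (either untreated, the second IAA-treated control, or either mutated library). Zfp217 went from 2910 and 2956 to 2523 and 2519 with IAA (-0.22 ± 0.04, limma adjusted p 4.5e-05), was at 2423 and 2527 with wild-type CTCF, and returned to 2827 and 2898 with mutated CTCF (0.18 ± 0.04, adjusted p 0.00054). Zfp462, which recruits a histone H3 lysine methyltransferase, fell from 4422 and 4496 to 3725 and 3888 (-0.23 ± 0.04, adjusted p 4.8e-06), and its libraries with either CTCF form, 3733 to 4100, stayed below both untreated ones. Zfp219, a regulator of Nanog, rose from 961 and 948 to 1102 and 1183 (0.26 ± 0.06, adjusted p 0.00031).

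Of 6 chromatin and transcription cofactors 3 rose and 0 fell with IAA, or 2 without the first untreated or the first IAA-treated library, beside 19.4% and 18.4% of all tested genes. With wild-type CTCF 2 rose, Zfp335 and Zfp687, but 0 rose without either IAA-treated control or the second wild-type library, with median-of-ratios factors or with GC and length correction. With mutated CTCF 0 passed the limma test. Zfp592 went from 1600 and 1528 to 1864 and 1906 with IAA (0.27 ± 0.05, limma adjusted p 2.0e-05). Zfp410, an activator of Chd4, had values from 1053 to 1124 over all 8 libraries, with log2 fold changes of 0.01 ± 0.05 with IAA, 0.02 ± 0.05 for the wild-type form and -0.01 ± 0.05 for the mutated one. Of 5 RNA and ribosome proteins, 0 passed the limma test with IAA, 2 rose with wild-type CTCF and 3 rose with mutated CTCF. The 2 became 0 without the first IAA-treated control or the second wild-type library. Zfp598, which marks collided ribosomes, was at 236 and 309 with IAA and 330 and 350 with wild-type CTCF (0.33 ± 0.10, adjusted p 0.0099), a call lost with GC and length correction too. Of 4 developmental factors Zfp423 fell with IAA and with mutated CTCF and Zfp568 rose with mutated CTCF, as given above. Zfp536 rose with IAA, a call lost without any library of either control group, and fell with mutated CTCF, a call lost without the second IAA-treated control or the first mutated library.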

How the data were processed

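The authors deposited 1 signal table of normalized read counts per gene for the 8 libraries. Trim Galore, STAR, featureCounts, DESeq2 and the build mm10 are named in the submitters' processing notes, and the annotation and the estimation of library factors are not given in the sources used here. Every deposited value was a whole multiple of 1 step per library (100% within 0.01), so reads were recovered by division. The step of the second mutated CTCF library, 0.989, lies so close to 1 that its recovered reads are uncertain. The edgeR test therefore left out the mutated CTCF group. Of the columns, 0 belonged to samples of another series.

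Genes with a mean of at least 10 were tested with limma 3.58.1 (R 4.3.3) on log2(value + 1), which understates changes of low genes, with 4 residual degrees of freedom and a mean-variance trend. On simulated data for the IAA comparison (15820 genes tested) 86% of genes changed by 0.5 (log2) and 100% of those changed by 1 were recovered. The simulation gave all genes the same dispersion and changed 100 genes by each size, all with a mean of at least 100. These rates hold for that setting and are not the power of the test on the real libraries. Alternatives were other pseudocounts, low-value filters and library factors, no trend, only the groups compared, GC and length correction, the replicate number as a block, each library left out, other neighbour distances, and edgeR 4.0.16 on recovered reads (IAA and wild-type comparisons only). Positions are GENCODE M21 on GRCm38. Genes were named by rank of change among calls without overlap between groups (5 each way per comparison), by the 4 largest clusters and by role lists. The members and lists were chosen with earlier results of these data known. Ctcf is not reported here. No molecular identifiers are named, and copies made by PCR may be among the reads.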

Additional observations from a re-analysis of the deposited data

How the results depend on the processing

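Each count is of the 267 genes unless another number is given, with 103 called with IAA, 86 with wild-type CTCF, 121 with mutated CTCF and 104 between the CTCF forms. Without the mean-variance trend, 72 were called with IAA, 43 with wild-type CTCF, 72 with mutated CTCF and 51 between the forms. Leaving out 1 library at a time gave 71 to 115, 58 to 86, 89 to 133 and 74 to 102 in the same order, and a lone library was then assumed to vary like the other groups. The other alternatives run left every count within 1.5 times, and the same-sign share of neighbours with IAA, 69.9%, was 65.5% at 100 kb, 68.6% at 500 kb and 61.9% with GC and length correction. With edgeR's quasi-likelihood test on recovered reads, 129 were called with IAA (37 higher, 92 lower) and 76 with wild-type CTCF (55 and 21). Removal of the genes of high shared sequence, an alternative chosen after seeing the data, left 230 genes. Of these, 92 were called with IAA, 65 with wild-type CTCF, 100 with mutated CTCF and 89 between the forms. Gene by gene, deviations of libraries with the same replicate number did not go together (mean correlation 0.0037, from -0.022 to 0.028 over 6 pairs of groups). That correlation cannot register a shift shared by all genes. The median-of-ratios factors were higher in replicate 2 of each group. They were 0.978 and 0.997 untreated, 0.976 and 0.996 with IAA, 1.007 and 1.044 with wild-type CTCF and 1.007 and 1.036 with mutated CTCF. With the replicate number as a block, 127 were called with IAA (38 higher, 89 lower), 99 with wild-type CTCF, 138 with mutated CTCF and 122 between the forms. Over the single-gene values chosen by the naming rule, the alternatives kept direction and call in 1565 instances, lost the call in 168 and reversed 0. Other values of named genes, such as the differences between the CTCF forms at Zfp786, Zfp398 and Zfp282, are outside this tally, and the calls these 3 lost are given beside them. Of the 73 falls with IAA 38 were called without any 1 library, as were 18 of the 30 rises. Genes near 100 normalized reads rest on about as many reads, and 2 libraries a group limit what can be called.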

Other observations

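Of 19 tested partner genes of the KRAB machinery, from a list chosen with earlier results known, 5 rose (26.3%) and 4 fell (21.1%) with IAA, beside 19.4% and 18.4% of all tested genes. The 4 became 2 without either IAA-treated control or the second untreated library, and 9 with libraries scaled to equal totals. Setdb1, the histone methyltransferase gene, went from 2218 and 2309 normalized reads to 3092 and 3009 (log2 fold change 0.43 ± 0.04, limma adjusted p 2.6e-11), and Trim28, the corepressor gene, from 1965 and 2043 to 2503 and 2409 (0.29 ± 0.06, adjusted p 7.4e-05). Resf1, which acts with SETDB1 on retroelements, went from 7831 and 8189 to 6385 and 6482 (-0.32 ± 0.03, adjusted p 3.9e-10), and Mphosph8, a subunit of the HUSH silencing complex, from 3002 and 3200 to 2543 and 2537 (-0.29 ± 0.04, adjusted p 3.6e-07). With wild-type CTCF 10 rose (52.6%) and 2 fell (10.5%), beside 21.5% and 10% of all tested genes. The split was 6 to 2 without the second wild-type library and 8 to 5 with median-of-ratios factors, and 3 to 0 without a mean-variance trend. It was 9 to 1 without the second IAA-treated control and 11 to 1 without the first wild-type library. With mutated CTCF 7 rose (36.8%) and 1 fell (5.26%), beside 22% and 12.4%. The fall was lost when any library of the groups compared was left out, and the split was 5 to 0 without the second mutated library, 7 to 3 with median-of-ratios factors and 2 to 0 without a mean-variance trend. Between the forms Resf1 was higher with mutated CTCF (0.33 ± 0.03) and Trim28 lower (-0.34 ± 0.06).

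A smaller KRAB cluster on chromosome 13, singled out after its values were seen, had 4 of 5 genes that fell with IAA and 4 that rose with mutated CTCF, beside 18.4% lower and 22% higher of all tested genes in these comparisons. Zfp748 went from 664 and 785 to 547 and 506 with IAA (-0.46 ± 0.07, limma adjusted p 3.1e-06) and was at 661 and 672 with mutated CTCF. Zfp738 went from 446 and 476 to 339 and 375 (-0.37 ± 0.08) and was at 496 and 432 with wild-type and 453 and 466 with mutated CTCF. Of the 12 other tested genes in its span, 4 fell with IAA and 6 rose with mutated CTCF. Zfp273, the last of the cluster, had 143 and 144 untreated and 132 and 141 with IAA, and passed the test in 0 of the 4 comparisons.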
